A study of Homo sapiens with 4 samples.

Results

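The erythrocyte ankyrin gene ANK1 and 8 genes for its relatives and binding partners were followed in A673, an established human line of Ewing sarcoma, a tumour driven by the fusion protein EWS-FLI1. The members were ANK1, ANK2 and ANK3 (ankyrins), SPTAN1, SPTB and SPTBN1 (spectrins), EPB41 (protein 4.1R), and ADD1 and ADD2 (adducins), which are 9 of the 60617 genes in the table, and all 9 were among the 17309 that passed the filter on low counts. ANK1 was chosen by its log2 fold change between the conditions, as one of the largest rises, so its change is given here as a description with no test, and the other 8 were listed by function, with earlier results of these data known. The cells were grown in DMEM with 10% serum and were treated for 24 h with either 1 µM CBL0137 or DMSO alone, with 2 libraries of total RNA per condition. CBL0137 is a curaxin, a small molecule that binds DNA and traps the histone chaperone FACT on chromatin. Nothing in the labels states that replicates came from separate cultures, and p-values then reflect the spread between these libraries alone, which may be technical.

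Ankyrins are adaptors that tie integral membrane proteins to the spectrin network under the plasma membrane. Spectrin is a flexible tetramer of alpha and beta chains, and its ends meet at short actin filaments, where protein 4.1 and adducin hold the junction together. The network was worked out in red cells, which use ANK1, SPTB and ADD2 among others. Most other cells build it from SPTAN1, SPTBN1 and ADD1. Neurons and heart muscle rely on ANK2 and ANK3 to place channels and adhesion molecules.

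Gene counts ran from 20483714 to 23373554 per library, and replicates differed by more than sampling noise (chi-square per degree of freedom 2.02 for DMSO and 2.47 for CBL0137). All 8 Ewing sarcoma markers checked, such as NR0B1 and NKX2-2, were expressed in every library, with a summed level of 5720 to 5753 CPM (read counts scaled to library size, after TMM) in DMSO and 5554 to 5557 CPM in CBL0137. CCND1 and CD99 had the highest levels in that sum, with means of 2974 and 1588 CPM in DMSO. A gene counted as called when edgeR's quasi-likelihood test gave an adjusted p (Benjamini-Hochberg over all 17309 genes) under 0.05 and the fold change exceeded 1.5. By that rule 1663 genes were called, or 9.61% of those tested, 1191 of them higher (6.88%) and 472 lower (2.73%) in CBL0137. Of the 8 Ewing sarcoma markers 1 was called, GLI1, which was higher (log2 fold change 0.60). At an edgeR adjusted p under 0.05 and any fold change, 3 of the 8 were higher and 2 lower, beside 3022 higher and 3292 lower of all 17309.

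ANK1 was higher after CBL0137, and its partners did not share a rise of that size. Of the 8 partners, 0 rose, 1 fell (ANK2) and 7 were not called by edgeR, beside a background of 9.61% of all tested genes called. An adjusted p under 0.05 at any fold change was reached by 4 of the 8, beside 36.5% of all tested genes. These 4, as also at an unadjusted p under 0.05, were SPTAN1 and SPTBN1, both higher, and ANK2 and EPB41, both lower. Over all 17309 tested genes, 3803 were higher and 3954 lower at that unadjusted limit. DESeq2 and limma-voom each gave 0 rises and 1 fall. The median log2 fold change of the 8 was -0.01, against 0.003 over all tested genes. The libraries of the 2 conditions did not overlap for 6 of the 8 partners, while 66.9% of all tested genes showed no overlap. Since the set was built around this same contrast, these counts describe it and carry no test of the set.

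**Figure D1:**
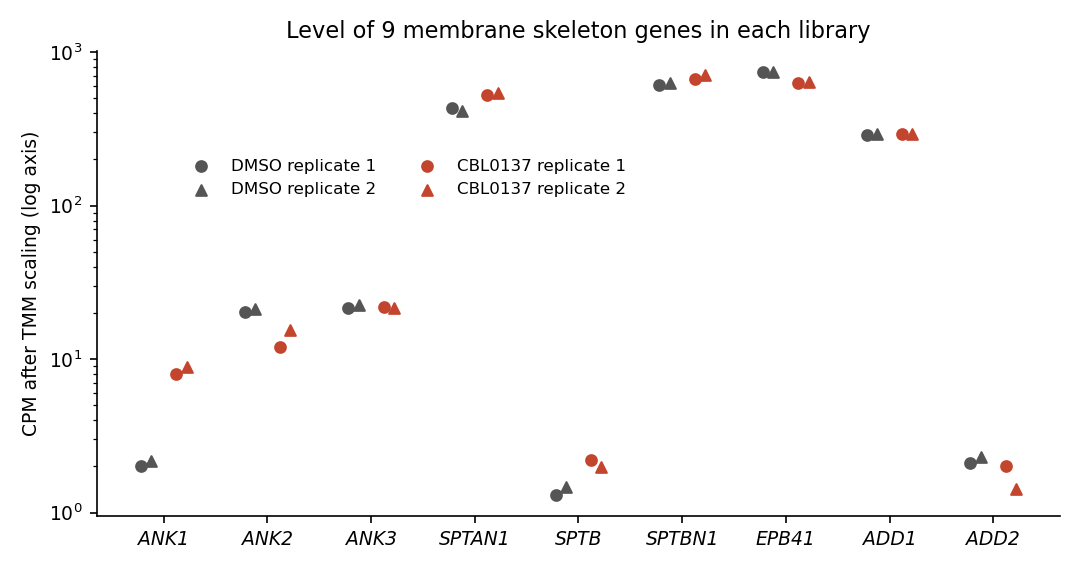
Level of each of the 9 genes in each library, as CPM after TMM scaling on a log axis, with DMSO in grey, CBL0137 in red, circles for replicate 1 and triangles for replicate 2. SPTAN1, SPTBN1, EPB41 and ADD1 lie between 289 and 745 CPM, ANK2 and ANK3 between 12.0 and 22.7 CPM, and ANK1 moves from 2.01 and 2.17 CPM to 7.94 and 8.84 CPM.

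The 9 genes differed widely in abundance. Per kilobase of annotated exon, EPB41 was the most abundant in DMSO at 37.2 CPM per kb, followed by SPTBN1 at 33.6, SPTAN1 at 25.7 and ADD1 at 22.0 CPM per kb. The remaining genes formed a second tier, with ANK3 at 0.853, ANK2 at 0.376, ANK1 at 0.190, ADD2 at 0.174 and SPTB at 0.0938 CPM per kb in DMSO. SPTAN1, SPTBN1 and ADD1, listed above for most cells, were thus abundant, as was EPB41, which is on neither side of that split. ANK1, ADD2 and SPTB, listed above for red cells, were the lowest of the members in DMSO. In CBL0137 the order per kb of exon became SPTBN1 (37.2), SPTAN1 (32.3), EPB41 (31.97), ADD1 (22.1), ANK3 (0.843), ANK1 (0.763), ANK2 (0.248), SPTB (0.141) and ADD2 (0.135). The libraries of SPTAN1 and EPB41 overlapped there, as did those of SPTB and ADD2. With the length of the MANE Select transcript in place of all annotated exons, ADD1 came second (70.3 CPM per kb in DMSO) and ANK2 stood above ANK3 in DMSO (1.46 and 1.29 CPM per kb), so the order within each tier depends on the length used.

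ANK1 (ENSG00000029534, chromosome 8, 41510739 to 41754259, minus strand, GRCh37) encodes the ankyrin first found in red cells. It had 46 and 49 reads in DMSO replicates 1 and 2, and 167 and 205 reads in CBL0137 replicates 1 and 2. In CPM these were 2.01 and 2.17 against 7.94 and 8.84, so both CBL0137 libraries lay far above both DMSO libraries. The log2 fold change was 2.003 ± 0.18 (SE, n = 2 per condition), which is 4.01-fold. By log2 fold change, the value that chose it, ANK1 was at the 99.4th percentile of the 17309 tested genes.

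The surroundings of ANK1 on the chromosome did not show a change of that size. Its nearest tested protein-coding neighbours are GPAT4, an enzyme of glycerolipid synthesis, and KAT6A, a histone acetyltransferase. GPAT4, 28.2 kb away, measured 98.6 and 91.8 CPM in DMSO and 83.6 and 84.2 CPM in CBL0137, a log2 fold change of -0.18 ± 0.05. KAT6A, 32.7 kb away on the other side, measured 142 and 144 CPM in DMSO and 132 and 133 CPM in CBL0137, a log2 fold change of -0.12 ± 0.04. Neither was called. Of the 18 nearest neighbours of all 9 members, 1 rose and 1 fell, beside 6.88% and 2.73% of all tested genes. The rise was OPRD1, an opioid receptor gene beside EPB41, at 0.73 ± 0.10. The fall was CDK1, the mitotic kinase gene beside ANK3, at -0.85 ± 0.045. One long non-coding gene on the strand of ANK1, ENSG00000260588, lies in the same interval and had 27 and 12 reads in DMSO and 35 and 28 in CBL0137.

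ANK2 (chromosome 4, 113739188 to 114305377, plus strand), the ankyrin known for its role in heart muscle and nerve, went the other way. It had 464 and 478 reads in DMSO and 252 and 357 in CBL0137, or 20.3 and 21.2 CPM against 12.0 and 15.4 CPM. Both treated libraries were below both controls, and they were further apart from each other than the controls were. The log2 fold change was -0.59 ± 0.11 with an edgeR adjusted p of 8.6e-05, which lies just past the fold limit (0.66-fold, 95% interval 0.57 to 0.77). Leaving out CBL0137 replicate 1 gave -0.43 and leaving out DMSO replicate 2 gave -0.57, both short of the limit. So did scaling by upper-quartile factors (-0.55) or by library size (-0.53), and keeping genes above 1 CPM (-0.58).

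ANK3 (chromosome 10, 61786056 to 62493248, minus strand), which encodes ankyrin-G of the axon initial segment and of epithelial cell borders, kept overlapping levels. Its CPM was 21.4 and 22.7 in DMSO and 22.0 and 21.5 in CBL0137, with a log2 fold change of -0.02 ± 0.09 (0.99-fold, 95% interval 0.87 to 1.12; edgeR adjusted p of 0.90). Scaled by upper-quartile factors or library size, its sign was positive (0.03 and 0.04), as it was without DMSO replicate 2 (0.02).

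As a result of these movements the make-up of the ankyrin reads shifted while their sum did not move in one direction. The 3 genes together measured 43.7 and 46.0 CPM in DMSO and 41.9 and 45.8 CPM in CBL0137. ANK1 supplied 4.60% (95% Wilson interval 3.47 to 6.08) and 4.72% (3.59 to 6.19) of ankyrin reads in DMSO replicates 1 and 2, and 18.9% (16.5 to 21.7) and 19.3% (17.1 to 21.8) in CBL0137 replicates 1 and 2. ANK2 supplied 46.4% and 46.1% in DMSO and 28.6% and 33.6% in CBL0137. ANK3 supplied 49.0% and 49.2% in DMSO and 52.5% and 47.0% in CBL0137, so its shares of reads overlapped. For each read of ANK2 there were 0.0991 and 0.103 reads of ANK1 in DMSO, and 0.663 and 0.574 in CBL0137. Corrected for exon length, ANK1 made up 13.3% and 13.5% of ankyrin transcripts in DMSO and 40.3% and 42.0% in CBL0137. On that scale ANK3 made up 60.1% and 60.1% in DMSO and 47.6% and 43.5% in CBL0137. With MANE Select lengths the ANK1 shares were 8.28% and 8.50%, then 30.9% and 31.2%, and those of ANK3 were 43.0% and 43.2%, then 41.8% and 37.04%. The intervals cover counting error only. ANK1 was chosen by its rise in these same counts, so the gap between its intervals carries no test.

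**Figure D2:**
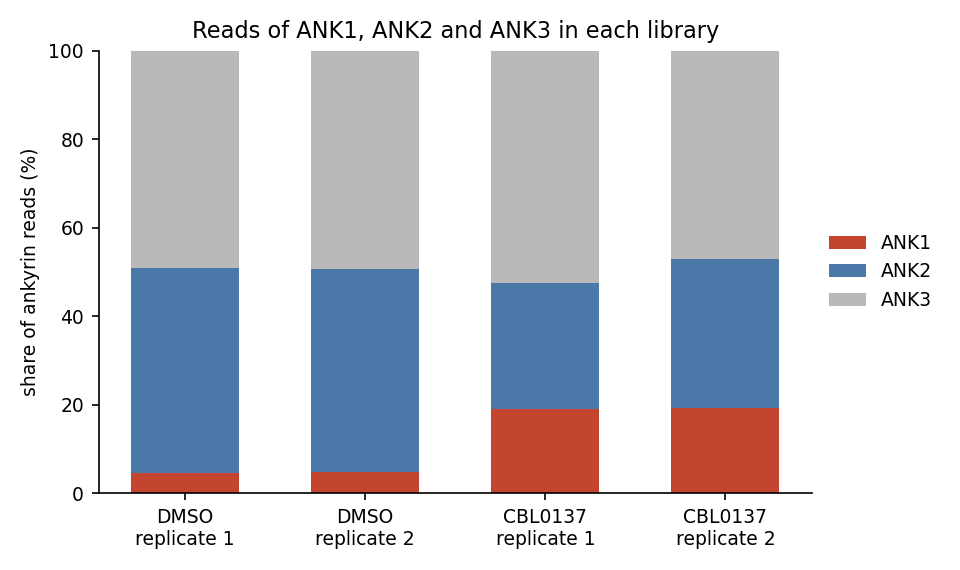
Stacked bars of the share of ankyrin reads, in percent, that came from ANK1 (red), ANK2 (blue) and ANK3 (grey) in each of the 4 libraries. The ANK1 segment is 4.60% and 4.72% in the DMSO libraries and 18.9% and 19.3% in the CBL0137 libraries, and the ANK2 segment is smaller in both CBL0137 libraries.

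Among the spectrins, the chains made in most cells moved by less than the fold limit. SPTAN1 (chromosome 9, 131314837 to 131395941, plus strand) encodes alpha-II spectrin, the alpha chain of non-erythroid cells. It measured 430 and 416 CPM in DMSO and 523 and 540 CPM in CBL0137, with no overlap. Its log2 fold change of 0.33 ± 0.03 (1.26-fold, 95% interval 1.20 to 1.32) had an edgeR adjusted p of 2.4e-08 and stayed inside the 1.5-fold limit. SPTBN1 (chromosome 2, 54683454 to 54898583, plus strand), the main non-erythroid beta chain, measured 612 and 628 CPM in DMSO and 665 and 711 CPM in CBL0137. Its log2 fold change was 0.15 ± 0.03 (1.11-fold, 95% interval 1.06 to 1.17; edgeR adjusted p of 0.0013), also inside the limit.

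SPTB (chromosome 14, 65213001 to 65346625, minus strand), the beta chain that pairs with ANK1 in red cells, was scarce in every library. It had 30 and 33 reads in DMSO and 46 and 46 in CBL0137, or 1.31 and 1.46 CPM against 2.19 and 1.98 CPM. Both CBL0137 libraries were higher, with a log2 fold change of 0.58 ± 0.29, but the 95% interval ran from 0.99-fold to 2.27-fold and the edgeR adjusted p was 0.12, so a change could not be told from the spread at this depth.

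The balance of alpha to beta chains was read from the same counts. For each unit of the 5 beta spectrin genes summed per kb of exon, SPTAN1 measured 0.674 and 0.646 in DMSO and 0.754 and 0.730 in CBL0137. SPTBN1 supplied 89.7% and 90.8% of the beta spectrin reads in DMSO and 89.7% and 89.9% in CBL0137, and SPTB supplied 0.192% and 0.211%, then 0.295% and 0.251%. SPTBN1 thus supplied most beta spectrin reads in every library, at 89.7% to 90.8%.

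None of the 3 members of the actin junction passed the fold limit. EPB41 (chromosome 1, 29213603 to 29446558, plus strand) encodes protein 4.1R, which strengthens the bond between spectrin and actin. It measured 743 and 745 CPM in DMSO and 634 and 644 CPM in CBL0137, and its replicates lay close together. The log2 fold change of -0.22 ± 0.03 (0.86-fold, 95% interval 0.82 to 0.90) had an edgeR adjusted p of 4.2e-06 and stayed inside the fold limit. Of the reads of the 4 protein 4.1 genes (EPB41, EPB41L1, EPB41L2, EPB41L3), EPB41 supplied 65.0% and 64.0% in DMSO and 58.0% in both CBL0137 libraries, while EPB41L2 supplied 33.8% and 34.9%, then 40.0% and 40.1%.

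ADD1 (chromosome 4, 2845571 to 2931803, plus strand), the alpha subunit of adducin, which caps actin filaments and recruits spectrin to them, measured 289 and 293 CPM in DMSO and 292 and 293 CPM in CBL0137. Its fold change was 1.00 (95% interval 0.95 to 1.06; edgeR adjusted p of 0.92), so a change above 1.06-fold lay outside the interval. ADD2 (chromosome 2, 70834750 to 70995357, minus strand), the beta subunit of red cells and brain, had 48 and 52 reads in DMSO and 42 and 33 in CBL0137. Its log2 fold change of -0.37 ± 0.28 (95% interval 0.52-fold to 1.15-fold; edgeR adjusted p of 0.32) was not called. Its CBL0137 replicate 2 was the lowest library, at 1.42 CPM, and the 3 others lay between 1.997 and 2.306 CPM.

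**Figure D3:**
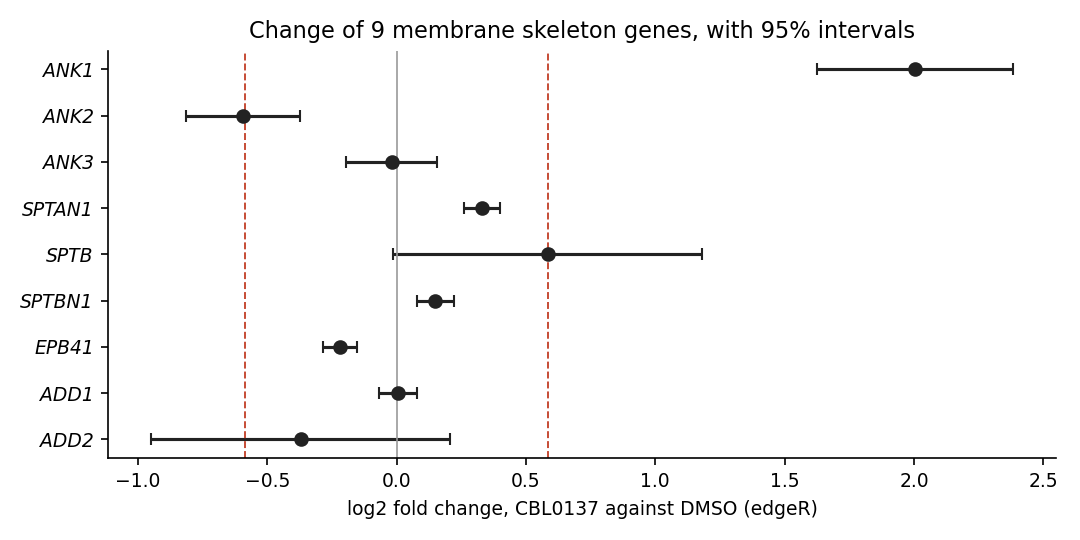
Log2 fold change of CBL0137 against DMSO for each of the 9 genes, from edgeR, as points with 95% intervals, where the dashed red lines mark a 1.5-fold change in either direction. ANK1 stands at 2.003, ANK2 at -0.59 lies on the lower limit, and the intervals of SPTB and ADD2, the genes with the fewest reads, are the widest. ANK1 was chosen by its rise, so its interval carries no test.

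Start-site sequence is shown for 4 members, namely the partner that fell (ANK2), the abundant members with the largest move in each direction (SPTAN1 and EPB41) and the red cell beta chain (SPTB). RefSeq promoter windows were found for 8 of the 9 members, 24 windows in all, since several genes have more than 1 start. ANK1 had no window. Each line gives the 250 bases before the first listed start, from RefSeq's GRCh38.p14 table, with the place of the exact match in GRCh37 and with capitals for any of 5 motifs found on either strand. The motifs were the TATA box TATAAA, the GC box GGGCGG, the CCAAT box CCAAT, the GATA factor site AGATAA and the GGAA repeat GGAAGGAA, of which EWS-FLI1 binds longer arrays.
SPTAN1, chr9:131314616-131314865, plus strand: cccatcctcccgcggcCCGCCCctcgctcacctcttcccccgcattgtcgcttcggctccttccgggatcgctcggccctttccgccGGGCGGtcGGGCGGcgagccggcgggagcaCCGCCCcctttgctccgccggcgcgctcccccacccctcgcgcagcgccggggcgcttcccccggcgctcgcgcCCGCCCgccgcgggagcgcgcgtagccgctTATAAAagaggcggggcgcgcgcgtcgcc
EPB41, chr1:29213362-29213611, plus strand: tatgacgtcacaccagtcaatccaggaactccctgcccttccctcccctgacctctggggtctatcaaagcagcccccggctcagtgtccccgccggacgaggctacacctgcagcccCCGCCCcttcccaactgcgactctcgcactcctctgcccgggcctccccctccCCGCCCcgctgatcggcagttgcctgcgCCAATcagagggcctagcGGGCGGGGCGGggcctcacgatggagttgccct
ANK2, chr4:113626528-113626777, plus strand: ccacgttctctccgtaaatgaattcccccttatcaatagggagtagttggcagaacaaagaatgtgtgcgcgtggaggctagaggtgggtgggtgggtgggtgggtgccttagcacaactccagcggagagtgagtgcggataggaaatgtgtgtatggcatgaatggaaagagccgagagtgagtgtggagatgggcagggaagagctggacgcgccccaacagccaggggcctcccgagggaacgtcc
SPTB, chr14:65346626-65346875, minus strand: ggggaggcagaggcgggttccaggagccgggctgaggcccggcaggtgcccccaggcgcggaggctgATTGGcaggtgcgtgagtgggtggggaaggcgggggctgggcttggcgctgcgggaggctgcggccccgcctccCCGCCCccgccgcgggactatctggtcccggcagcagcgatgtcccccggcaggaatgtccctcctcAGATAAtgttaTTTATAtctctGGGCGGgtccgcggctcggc

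The 4 windows differ in base composition and in the letters they hold. The SPTAN1 window has 79.2% G and C, with 5 GC boxes and a TATA box that begins 29 bases before the start. The EPB41 window has 68.4% G and C, with 4 GC boxes, of which neighbouring copies overlap, and 1 CCAAT box. The first ANK2 window has 57.2% G and C, close to the median of 58.0% over all 35116 windows, and holds none of the 5 motifs. That window lies outside the interval given for ANK2 above, which begins at 113739188. It is also 1 of 10 ANK2 windows among the 24, and others do hold motifs. ANK2 window 8 has a GC box, and window 6 has a CCAAT box and a GATA site. The SPTB window has 72.0% G and C, with 2 GC boxes and 1 each of the TATA box (on the opposite strand), CCAAT box and GATA site. Over the 24 member windows, 12 held a GC box, 9 a CCAAT box, 3 a TATA box, 2 a GATA site (1 each in ANK2 and SPTB) and 0 the GGAA repeat. Over all windows of this length the shares were 42.6%, 32%, 10.7%, 9.17% and 3.06% in the same order. A match is a string of letters and shows no binding.

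Other genes of the membrane skeleton were listed by role. Of 56 such genes 44 could be tested, and 4 rose, 0 fell and 40 were not called by edgeR, a called share of 9.09% beside 9.61% of all tested genes. At an unadjusted p under 0.05, 17 of the 44 were higher and 10 lower, beside 3803 higher and 3954 lower of the 17309 genes tested. DESeq2 gave 2 rises and 0 falls, and limma-voom 4 rises and 0 falls. Without DMSO replicate 2 edgeR called 1 rise, and without CBL0137 replicate 2 it called 2. The median log2 fold change of the 44 was 0.05, against 0.003 over all tested genes, and the median size of change was 0.16, against 0.22.

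Among those that rose were SPTBN5, EPB41L1 and DMTN. SPTBN5, a very long beta spectrin chain, measured 9.62 and 7.76 CPM in DMSO and 13.7 and 14.4 CPM in CBL0137 (0.69 ± 0.12 on the log2 scale; adjusted p by edgeR of 7.5e-05). It lost its call without DMSO replicate 2 (0.54), and it overlaps the opposite-strand JMJD7-PLA2G4B, which measured -0.42 ± 0.16. EPB41L1, the protein 4.1N of neurons, measured 13.9 and 13.3 CPM in DMSO and 21.0 and 20.3 CPM in CBL0137 (0.60 ± 0.10; edgeR adjusted p of 1.8e-05). It too lay near the fold limit, at 0.57 without DMSO replicate 2 and without CBL0137 replicate 1. DMTN, the actin-bundling dematin of the red cell junction, measured 0.306 and 0.710 CPM in DMSO and 1.05 and 1.47 CPM in CBL0137 (1.31 ± 0.44; edgeR adjusted p of 0.023). DESeq2 gave no adjusted p for DMTN. DMTN lost its call without DMSO replicate 1 (0.82) or CBL0137 replicate 2 (1.04).

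Within the other spectrin and junction genes the median log2 fold change of each group was above that of all tested genes (0.003). It was 0.28 for further spectrin chains, 0.16 for protein 4.1 relatives and gamma adducin, and 0.11 for the junctional complex. At an edgeR adjusted p under 0.05 these groups had 1, 2 and 4 genes higher and 0, 1 and 1 lower. Over all 17309 tested genes, 3022 were higher and 3292 lower at that limit. The groups described below had lower medians. These were 0.07 for ankyrin-bound molecules, 0.0005 for other cortex linkers, -0.07 for the calpain system and -0.32 for red cell partners. The calls in these small groups stand beside 6.88% of all tested genes that rose and 2.73% that fell. Of 3 tested further spectrin chains, 1 rose, and SPTBN4 (0.28 ± 0.25) was not called. Of 5 tested protein 4.1 relatives and gamma adducin, 1 rose, while EPB41L2 measured 0.16 ± 0.04 and ADD3, the gamma adducin that pairs with ADD1 outside red cells, -0.11 ± 0.04. EPB41L3, named after its values were seen, measured 1.17 from 6 and 3 reads in DMSO and 10 and 10 in CBL0137 and was not called. Of 7 tested genes of the junctional complex and actin protofilament, 1 rose, while the pointed-end capping protein gene TMOD2 measured 0.54 ± 0.15 and the tropomyosin gene TPM3 0.11 ± 0.03. TMOD2 was called when DMSO replicate 1 was left out (0.69) and when scaling used upper-quartile factors (0.59) or library size (0.60).

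Most red cell partners of ANK1 were at or near 0 reads. Of 10 red cell membrane genes, 6 could not be tested, among them SLC4A1, the band 3 anion exchanger that binds ANK1, with 0 reads in all libraries, and EPB42, protein 4.2, with 1 and 0 reads in DMSO and 0 and 0 in CBL0137. RHAG had 3 and 3 reads in DMSO and 1 and 0 in CBL0137, and GYPC had 1 and 2, then 1 and 5. Of the 4 tested, edgeR, DESeq2 and limma-voom each called 0, beside 9.61% of all tested genes called by edgeR. At an unadjusted p under 0.05 by edgeR, 1 of the 4 was lower, beside 3954 of all 17309. That gene was SLC2A1, the glucose transporter, at -0.26 ± 0.05, while STOM, stomatin, measured 0.04 ± 0.04.

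Among membrane proteins that ankyrins anchor and other linkers of the cortex, edgeR called 1 gene. Of 11 tested ankyrin-bound molecules, 1 rose (9.09%, beside 9.61% of all tested genes called). limma-voom also gave 1 rise here, and DESeq2 gave 0. At an edgeR adjusted p under 0.05, 4 of the 11 were higher and 2 lower, beside 3022 higher and 3292 lower of all 17309. Dystroglycan, DAG1, was among the lower ones, at -0.27 ± 0.04. Of 10 other cortex linkers, edgeR, DESeq2 and limma-voom called 0, with 5 higher and 4 lower at an unadjusted p under 0.05 (3803 higher and 3954 lower of all 17309), such as the dystrophin relative UTRN at 0.21 ± 0.04 and moesin, MSN, at -0.18 ± 0.03. Of 4 genes of the calpain system, whose proteases cut spectrin, all 3 tools called 0, with 1 lower at an unadjusted p under 0.05, namely CAPNS1 at -0.15 ± 0.04, and the inhibitor CAST measured -0.08 ± 0.05.

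**Figure D4:**
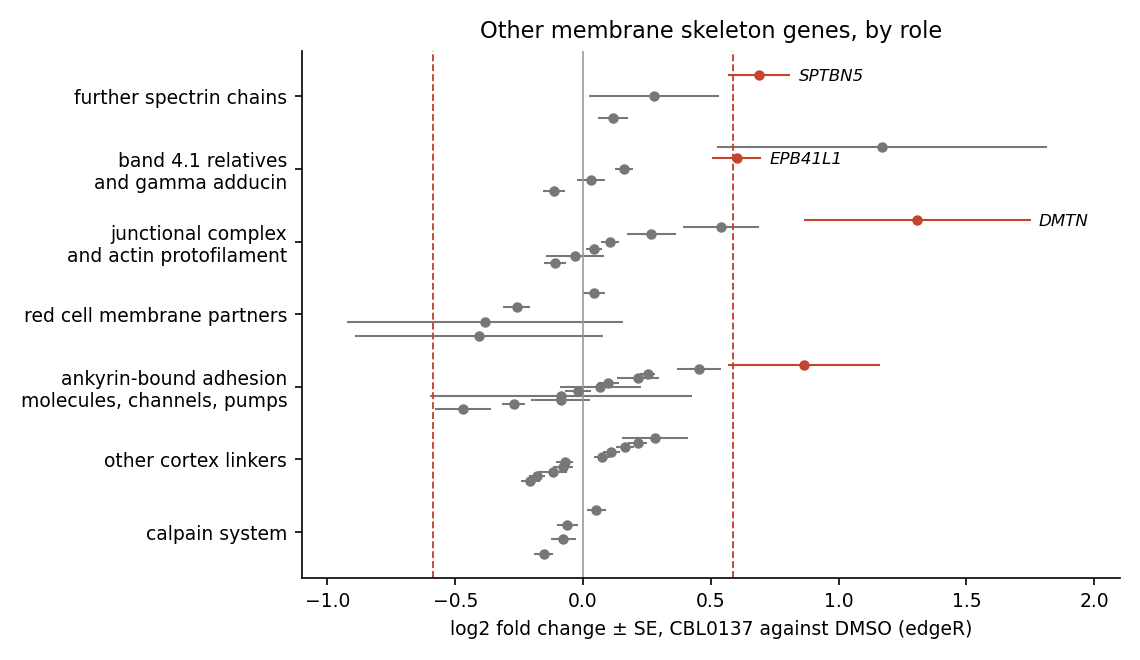
Log2 fold change ± SE of the 44 tested genes of the wider list, by role, from edgeR, with called rises in red and genes not called in grey, and dashed lines at a 1.5-fold change. SPTBN5, EPB41L1 and DMTN are labelled among the rises, and the 10 other cortex linkers lie between -0.21 and 0.28.

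Markers of red cell precursors, skeletal muscle, neurons and epithelium were read alongside. Of 13 erythroid markers, 7 had 0 reads in every library, among them GATA1, HBB, AHSP and SLC4A1, and the summed level of the list was 1.27 and 1.597 CPM in DMSO and 1.57 and 1.81 CPM in CBL0137, below that of ANK1 alone in each library. HBA2 had 2 and 2 reads in DMSO and 6 and 17 in CBL0137. Of 10 skeletal muscle markers, MYOD1, MYOG and MYF5 had 0 reads in every library. The sum over the 10 was 38.1 and 37.7 CPM in DMSO and 56.0 and 55.8 CPM in CBL0137. TNNT1, a slow muscle troponin, was called higher (0.80 ± 0.07, edgeR adjusted p of 2.2e-09). It supplied 24.0 and 23.2 CPM of that sum in DMSO and 40.6 and 41.65 CPM in CBL0137. The other tested muscle markers were not called, with MYH8 at -0.77 ± 0.39, MYH3 at 0.11 ± 0.26 and TTN at 0.10 ± 0.12. The median log2 fold change of the 4 tested was 0.11. The sum over 10 neuronal markers was 610 and 615 CPM in DMSO and 455 and 477 CPM in CBL0137, with INA called higher (0.68 ± 0.10) and ENO2 lower (-0.62 ± 0.04). The 2 most abundant of them, ENO2 and SYT1 (-0.42 ± 0.04), were lower, while SYP (0.48 ± 0.10), GAP43 (0.46 ± 0.10) and SNAP25 (0.32 ± 0.10) were higher without passing the fold limit. The median log2 fold change of the 8 tested neuronal markers was 0.33, opposite in sign to the change of their sum. At an edgeR adjusted p under 0.05, 4 of them were higher and 2 lower, beside 3022 higher and 3292 lower of all 17309. The sum over 7 epithelial markers was 297 and 296 CPM in DMSO and 467 and 496 CPM in CBL0137, where KRT8 (0.59 ± 0.04) and KRT18 (0.79 ± 0.04) were called higher. The other 5 were too low to test, with EPCAM at 14 and 7 reads in DMSO and 6 and 5 in CBL0137, ESRP1 at 3 and 8, then 2 and 2, CDH1 and KRT5 at 0 to 4 reads and GRHL2 at 0. The part of the muscle, neuronal and epithelial markers in the ankyrin values was not tested.

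The genes whose pattern over the 4 libraries was closest to that of ANK1 were sought among 14643 other genes averaging 1 CPM or more, by Euclidean distance between centred log2(CPM + 1) values. They were MMP9, a matrix metalloproteinase (distance 0.0333), KRT17P1, a keratin 17 pseudogene (0.0886), DISP2, a relative of the hedgehog release factor dispatched (0.0988), SPOCD1 (0.127) and C1QTNF1, a secreted C1q and TNF related protein (0.129). MMP9 measured 66.2 and 71.5 CPM in DMSO and 197 and 219 CPM in CBL0137. DISP2 measured 1.36 and 1.51 CPM in DMSO and 5.47 and 6.55 CPM in CBL0137. Reads of KRT17P1 may come from its near-identical parent gene, so its values are uncertain. The search ranks genes by likeness to a rise that was itself chosen, so these genes are a description.

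The deposited FPKM, the authors' own length-scaled level, gave another view of the same libraries. ANK1 stood at 0.0553 and 0.148 FPKM in DMSO and 0.496 and 0.780 FPKM in CBL0137, again with no overlap. ANK2 stood at 0.524 and 0.281 FPKM in DMSO and 0.112 and 0.394 FPKM in CBL0137, so here the conditions overlapped, unlike in its counts. SPTAN1 stood at 29.7 and 26.6 FPKM in DMSO and 52.8 and 38.9 FPKM in CBL0137, and limma-trend on log2(FPKM + 1) put its log2 fold change at 0.67 with an adjusted p of 0.061. Its FPKM and its counts thus gave different sizes of change. EPB41 stood at 24.6 and 32.2 FPKM in DMSO and 26.9 and 24.4 FPKM in CBL0137, so its conditions overlapped, unlike in its counts. On log2(FPKM + 1) limma-trend put EPB41 at -0.13 (adjusted p of 0.55) and SPTBN1 at 0.16 (adjusted p of 0.22). The FPKM of ANK3 and ADD1 overlapped too, as their counts did in CPM. SPTB stood at 0.0598 and 0.109 FPKM in DMSO and 0.0861 and 0.118 FPKM in CBL0137, where the conditions also overlapped. ADD2 stood at 0.0318 and 0.0359 FPKM in DMSO and 0.0320 and 0.183 FPKM in CBL0137, although its reads were fewest in the library with 0.183.

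The deposited FPKM was divided in each library by CPM over all gene counts, here without TMM factors, and any library-wide scaling behind the FPKM is not known. The highest value of that quotient was 1.16 times its lowest in the median of 15634 tested genes with at least 10 reads and an FPKM above 0 in every library, but 3.09 times in ANK1, 2.91 times in ANK2, 1.50 times in SPTAN1 and 8.18 times in ADD2. ADD2 was at the 99.0th percentile of these genes for that spread, ANK1 at the 96.4th and ANK2 at the 96.0th. SPTBN1, at 1.10 times, was below the median. What sets these ratios was not tested, and the levels above rest on the counts.

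**Figure D5:**
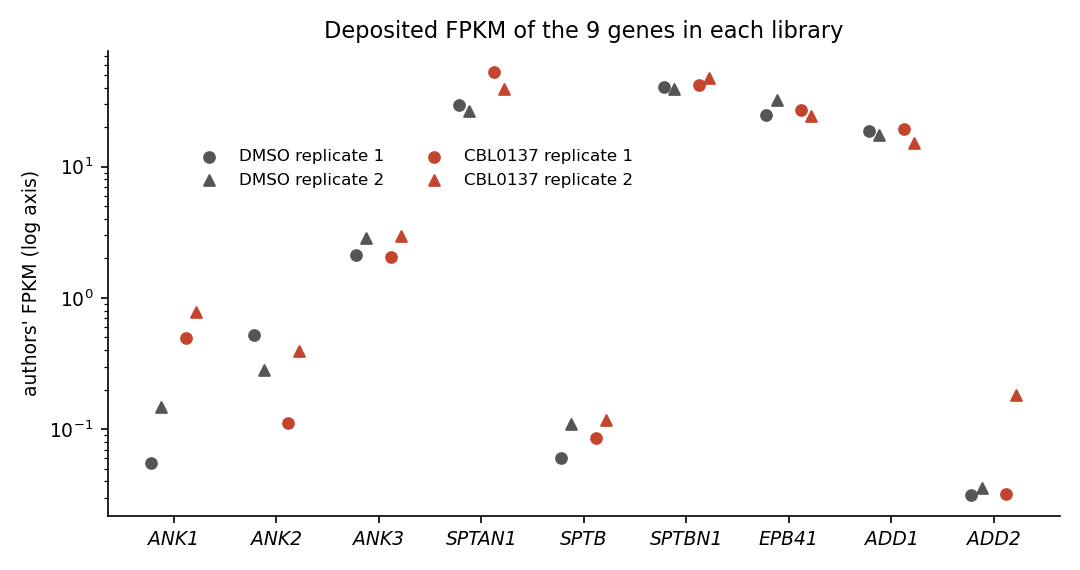
Deposited FPKM of each of the 9 genes in each library on a log axis, with DMSO in grey, CBL0137 in red, circles for replicate 1 and triangles for replicate 2. ANK1 is at 0.0553 and 0.148 in DMSO and at 0.496 and 0.780 in CBL0137. The conditions overlap for ANK2, ANK3, SPTB, EPB41, ADD1 and ADD2, and ADD2 has 1 high library, CBL0137 replicate 2.

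Overlapping genes bear on some of these counts, since the sources used here do not give whether the libraries kept strand. SPTB overlaps PLEKHG3 on the opposite strand, which had 1005 to 1221 reads per library against 30 to 46 for SPTB, and measured 0.20 ± 0.06. SPTAN1 overlaps DYNC2I2 on the opposite strand, which had 2121 to 3116 reads and measured -0.40 ± 0.05, opposite in sign to SPTAN1. EPB41 overlaps the opposite-strand TMEM200B, with 44 to 74 reads against 13333 to 16998 for EPB41. ANK2 overlaps a pseudogene on the opposite strand, ENSG00000196656, with 11 to 18 reads, and SPTBN1 overlaps SPTBN1-AS2, with 43 to 50. For ADD1, ADD2 and ANK3 no overlapping gene reached 10 reads in any library.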

How the data were processed

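RNA came from TRIzol extraction and was made into Illumina libraries, per the labels' protocols. Per the submitters' processing notes, reads were trimmed with Trim Galore, mapped to hg19 with HISAT2 and counted with HTSeq 0.11.1, and the deposited values are gene counts and FPKM. The annotation and the tool behind the FPKM are not given in the sources used here. Summary rows, 23.7% to 24.8% of reads per library, stayed out. Ensembl IDs took symbols, positions and exon lengths from GENCODE release 44 on GRCh37, the build also called hg19.

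The test was edgeR 4.0.16 in R 4.3.3 with TMM factors, filterByExpr (minimum count 10) and a quasi-likelihood fit to all 4 libraries. The SE is the absolute log2 fold change over the square root of F, and 95% intervals use the t quantile of the fit's degrees of freedom. The same test was also run on simulated counts drawn from the levels and spread of these libraries, with the outcome not given here. Alternatives used limma 3.58.1, DESeq2 1.42.0, other scalings and filters, each library left out, and log2(FPKM + 1) or log2(FPKM + 0.1) where 2 libraries reached an FPKM of 1. Members and gene lists were chosen with earlier results of these data known. Named genes are all members and, per role, called genes up to 4 and the next 2 by adjusted p; some of these are not reported here. Promoter motifs, overlapping genes, single markers and the further red cell genes were chosen after values were seen.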

Additional observations from a re-analysis of the deposited data

How the results depend on the processing

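The count over all genes was 1343 to 1591 with a library left out, against 1663, and moved to 1053 with DESeq2 and to 577 and 726 on log2(FPKM + 1) and log2(FPKM + 0.1). The share of higher calls was 71.6% with TMM, 78.2% with upper-quartile factors and 79.8% with library size alone. The count of called partners was 0 in place of 1 with library size alone, upper-quartile factors, a filter of 1 CPM and both FPKM scales (on which 5 of the 8 partners could be tested), and ran from 0 to 1 with a library left out. The wider list had 2 calls with DESeq2, 1 on each FPKM scale and 1 to 3 with a library left out, against 4. The sign turned for ADD1 on the FPKM scales (-0.072 and -0.076) and when low counts were kept (-0.006), and its range with a library left out was -0.012 to 0.009. It turned for ANK3 with library size alone (0.043), upper-quartile factors (0.030) and on the FPKM scales (0.006 and 0.005), with a range of -0.065 to 0.015 with a library left out, positive without DMSO replicate 2. It also turned for CAST on the FPKM scales (0.191 and 0.199), for SPTBN4 without DMSO replicate 2 (range -0.016 to 0.629) and for STOM without CBL0137 replicate 2 (range -0.009 to 0.086). The cause was not tested. With a library left out, the lone library is assumed to vary like the other condition. Replicate numbers did not pair the libraries (correlation of deviations -0.0209), and with the replicate block 1576 genes, 1 partner and 4 of the wider list were called. Depth limits SPTB, ADD2 and DMTN, each under 3 CPM. ANK1 was also under 3 CPM in DMSO, at 2.01 and 2.17 CPM.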
